A study of Homo sapiens with 4 samples.

Results

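Gene expression 24 h and 48 h after interleukin 2 (IL-2) was given was compared in unedited NK-92, an established human natural killer (NK) cell line that depends on IL-2 for growth. The comparison used 1 library at each time, 2 of the 4 libraries of the study, and kept the 18977 of 61860 genes with at least 10 counts in at least 1 of these 2 libraries. All 4 libraries came from cells grown in medium with IL-2 at 20 ng/ml, from total RNA depleted of ribosomal RNA with RiboCop and prepared with the CORALL V2 kit. The wild-type (WT) cells carried no edit. The other 2 libraries, at the same 2 times, came from 1 edited NK-92 line, ΔOGT-ISS, that lacks an intronic splicing silencer (ISS) of OGT after cutting with CRISPR-Cas9; OGT is the gene of the enzyme that attaches the sugar O-GlcNAc to intracellular proteins. IL-2 appears in the titles of the 24 h libraries alone, whereas the treatment labels give IL-2 to all 4, at 24 h or 48 h before RNA extraction, and the times used here are those of the treatment labels. The labels do not say whether the last IL-2 replaced or followed earlier IL-2, nor whether the libraries came from separate cultures. With 1 library a side there is no replicate spread, so no test was made and no p-value is given.

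IL-2 binds a receptor made of an alpha chain (IL2RA), a beta chain (IL2RB) and the common gamma chain (IL2RG). The kinases JAK1 and JAK3 on its tails phosphorylate STAT5A and STAT5B, which enter the nucleus and switch on genes such as CISH, SOCS1, SOCS2, PIM1 and BCL2. The receptor also feeds the PI3K, AKT and mTOR pathway, which drives nutrient uptake, glycolysis and ribosome production and holds FOXO transcription factors out of the nucleus, and the RAS and MAP kinase pathway. CISH and the SOCS proteins damp the signal in return. In NK cells IL-2 sustains survival and division and raises the granule proteins perforin and the granzymes.

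STAT5 dimers favour the palindrome TTCNNNGAA. The promoter windows of CISH, a STAT5 target that was higher at 24 h, and of BCL6, a transcriptional repressor known to be lowered by STAT5 that was lower at 24 h, each held 4 matches to it. The remaining window belongs to P4HA1, a collagen prolyl hydroxylase and known target of the hypoxia-inducible factor HIF1 that was lower at 24 h, and holds 1 match to ACGTG, the core of the HIF1 element. The windows run from 250 bases before to 50 after the RefSeq start of each gene on GRCh38.p14, at chr3:50611725-50612024, chr3:187745419-187745718 and chr10:73096817-73097116, all on the minus strand. They are printed 5′ to 3′ on the gene's strand with the matches in capitals.
CISH: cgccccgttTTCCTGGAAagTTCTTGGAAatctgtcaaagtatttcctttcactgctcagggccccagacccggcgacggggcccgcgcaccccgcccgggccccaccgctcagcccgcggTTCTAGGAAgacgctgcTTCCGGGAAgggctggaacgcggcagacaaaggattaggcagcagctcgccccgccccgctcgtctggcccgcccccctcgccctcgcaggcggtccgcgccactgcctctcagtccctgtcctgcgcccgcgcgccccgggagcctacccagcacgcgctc
BCL6: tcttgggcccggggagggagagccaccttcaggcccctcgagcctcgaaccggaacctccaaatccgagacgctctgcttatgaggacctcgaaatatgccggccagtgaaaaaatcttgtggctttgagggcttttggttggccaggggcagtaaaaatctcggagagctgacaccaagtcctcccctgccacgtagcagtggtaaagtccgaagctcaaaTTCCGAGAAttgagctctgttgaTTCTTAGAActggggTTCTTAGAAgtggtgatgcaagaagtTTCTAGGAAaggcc
P4HA1: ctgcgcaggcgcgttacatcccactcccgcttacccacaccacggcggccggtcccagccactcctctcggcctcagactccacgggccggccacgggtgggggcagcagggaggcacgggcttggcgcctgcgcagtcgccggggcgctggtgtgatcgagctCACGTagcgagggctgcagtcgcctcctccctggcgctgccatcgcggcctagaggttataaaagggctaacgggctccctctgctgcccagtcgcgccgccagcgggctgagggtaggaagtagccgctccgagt
The matches in CISH began at -241, -230, -129 and -112 from the start and those in BCL6 at -28, -5, 10 and 36. The single P4HA1 match, at -86, lies on the other strand, so it reads CACGT above. Because TTCNNNGAA is its own reverse complement, a match on one strand is a match on both. It was present in 2689 of 35116 RefSeq promoter windows (7.66%), and in 5 of the 22 IL-2 and STAT5 target genes with a window (22.7%), namely CISH, BCL6, LTA, IFNG and TNFRSF9. Windows with at least 2 matches numbered 160 of 35116 (0.456%) and 3 of 22. ACGTG, on either strand, was in 7518 windows (21.4%) and in 13 of 28 glycolysis and HIF1 genes (46.4%); ACGTG also lies within the E-box CACGTG. TGATGNAA, the core of the element bound by ATF4, was in 1270 windows (3.62%) and in 7 of 24 genes of the ATF4 list (29.2%). The shares of all windows count every window, several for some genes, whereas those of the lists count 1 window a gene, so they are not like measures. These matches describe sequence only, and the 3 printed windows and the motif ACGTG were chosen after the expression values were seen.

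The WT 24 h library held 24809269 counts and the WT 48 h library 10889986. Levels are given in CPM, a gene's count scaled to the size of its library. On this scale 3 counts, used here in place of a count of 0, were worth 0.118 and 0.283 CPM. Library content differed too: the signal recognition particle RNA RN7SL1 took 4.39% of the counts at 24 h and 0.425% at 48 h, mitochondrial ribosomal RNA 0.0174% and 0.187%, and processed pseudogenes 0.165% and 0.547%. There were 1.72 genes at 1 count for each gene at 2 counts at 24 h and 0.932 at 48 h, so low counts were distributed differently. NK-92 identity was checked with 20 genes, which include CD3D, CD3E and FCGR3A as genes the line was taken to lack; all but CD3D were kept, and their summed level was 7022 CPM at 24 h and 5232 CPM at 48 h. NCAM1 (CD56) had 11118 and 2778 counts, and FCGR3A (CD16) 19 and 29. Of the 14 T cell markers 7 were kept, with CD3E at 7692 and 2347 counts, so CD3E was not absent from the line; the T cell sum was 725 CPM at 24 h and 494 CPM at 48 h. B cell markers summed to 52.1 and 79.5 CPM with 2 of 9 kept, erythroid and platelet markers to 1.49 and 0.66 CPM with 2 of 9 kept. Myeloid markers, with 4 of 12 kept, summed to 305 CPM at 24 h and 823 CPM at 48 h, nearly all from S100A9 with 280 and 776 CPM. Their part in the results was not tested.

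A gene's ratio is its CPM at 24 h over its CPM at 48 h, normalized by the trimmed mean of M values (TMM) of the 2 libraries, with a 95% interval that covers counting error only. A gene was called higher or lower when the ratio was at least 2-fold and the interval left out 1. By this rule 4126 of 18977 genes (21.7%) were higher at 24 h and 2703 (14.2%) lower, and any list is to be read against these shares. The median log2 ratio of all genes was 0.12. In these bulk libraries fewer cells with a transcript and less of it per cell cannot be told apart.

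The ratio followed the base composition of the transcripts. With the protein-coding genes in 10 groups of about equal size ordered by GC content, the group with the least GC (30.9 to 38.6%) had a median log2 ratio of -0.54 and the group with the most (61.7 to 76%) a median of 1.32. In the richest group 61.8% of genes were called higher and 2.41% lower, and in the poorest 1.61% and 19.9%. The edited line, compared between the same times, ran from -0.34 to 1.11. The edited line over WT at 24 h gave medians of 0.15 and -0.10 in the poorest and richest group, and at 48 h of -0.06 and 0.11. The trend with GC content was thus between the times, in both lines, and whether it comes from the cells or from the libraries cannot be told apart here. A second ratio, called adjusted below, removes a smooth trend on GC content and length; it left 2033 of 18249 genes higher (11.1%) and 2743 lower (15.0%), of which 1801 and 2034 were called the same way without it. The adjusted median of all genes was -0.04.

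**Figure D1:**
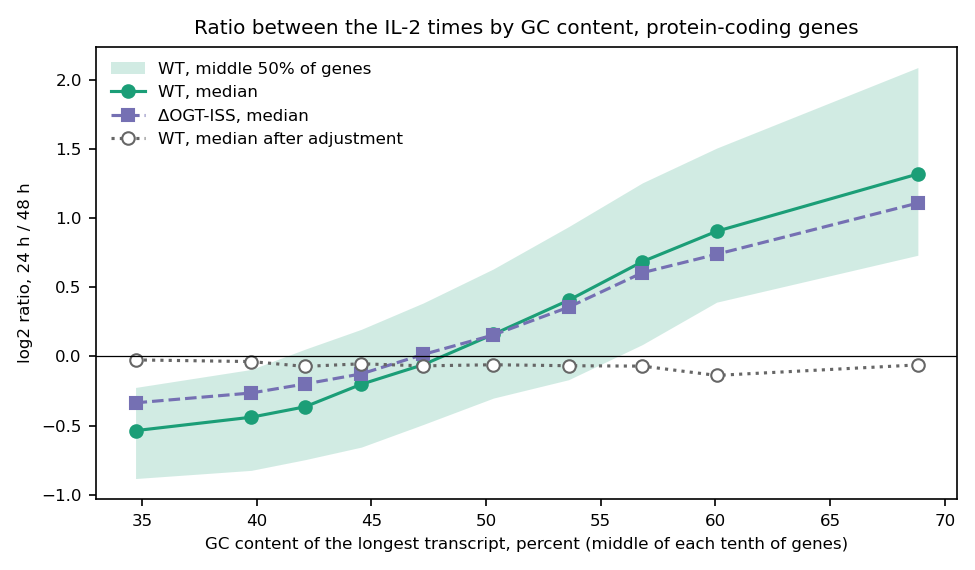
Median log2 ratio of 24 h to 48 h (vertical axis) in 10 groups of protein-coding genes ordered by the GC content of the longest transcript (horizontal axis, percent), for WT (circles, shaded middle 50% of genes), ΔOGT-ISS (squares) and WT after adjustment (open circles). The WT median climbs from -0.54 to 1.32, and that of ΔOGT-ISS from -0.34 to 1.11.

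The mRNAs of IL2RB, IL2RG, JAK3 and STAT5A were close between the times once GC content was taken into account, whereas IL2RA stayed lower at 24 h. IL2RB was at 776 CPM at 24 h and 409 CPM at 48 h, a ratio of 1.90 (95% interval 1.83 to 1.96), and 1.06 adjusted. JAK3 had a ratio of 1.89 (1.78 to 2.01) and 1.01 adjusted. STAT5A, at 134 and 80.1 CPM, had a ratio of 1.67 and 0.93 adjusted. IL2RG differed little on either scale, with 95.9 and 79.4 CPM. IL2RA, the high-affinity chain, was the exception: 114 CPM at 24 h against 168 CPM at 48 h, a ratio of 0.68 (0.64 to 0.72) and 0.70 adjusted. Of the 18 receptor and JAK-STAT genes, all kept, 1 was higher (SHC1, an adaptor to RAS, ratio 2.28, adjusted 1.37) and 2 lower: PTPN2, a phosphatase of JAKs and STATs, at 0.42 (adjusted 0.57), and PTPN6, a phosphatase recruited by inhibitory receptors, at 0.49 (adjusted 0.26). The median log2 ratio was 0.28 for this list and 0.01 adjusted.

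Without the adjustment, STAT5 target genes were called in both directions at near the shares of all genes. CISH (ENSG00000114737, chromosome 3, 50606490 to 50611831, GRCh38) had 9138 counts at 24 h and 1253 at 48 h, that is 359 and 118 CPM. Its ratio was 3.04 (2.87 to 3.23), and 1.79 after adjustment, which is short of 2-fold. PIM1, a survival kinase, had 15202 and 2511 counts and a ratio of 2.52 (2.42 to 2.63), adjusted 1.59. CISH and PIM1 were thus called higher at 24 h only without the adjustment. In the edited line the ratios were 3.01 for CISH and 2.51 for PIM1. SOCS2 did not follow them, at 117 and 114 CPM, and neither did BCL2, at 296 and 341 CPM.

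NFIL3, a transcription factor needed for NK cell development (ENSG00000165030, chromosome 9, 91409045 to 91423862), went the other way. It had 1093 counts at 24 h and 1764 at 48 h, that is 42.9 and 166 CPM, a ratio of 0.26 (0.24 to 0.28) and 0.28 adjusted. The edited line gave the same ratio, 0.26. BCL6 was at 3.58 and 10.5 CPM, a ratio of 0.34 (0.26 to 0.46) and 0.29 adjusted. IFNG, the cytokine interferon gamma, was at 26.2 and 74.2 CPM, a ratio of 0.35 (0.32 to 0.39) and 0.50 adjusted. MYC, the growth regulator, was at 129 and 216 CPM, a ratio of 0.59 (0.56 to 0.63) that passed 2-fold only when adjusted, at 0.43. SOCS3 and SOCS1, further feedback inhibitors, rested on few counts: SOCS3 had 29 and 2, a ratio of 6.05 with an interval from 1.53 to 52.3 that lost its call when adjusted, at 3.04 (0.77 to 26.3). SOCS1 had 91 and 39, a ratio of 0.97, and was called lower when adjusted, at 0.28 (0.19 to 0.42). TNFRSF9 (4-1BB), a costimulatory receptor, had 179 counts at 24 h and 13 at 48 h, a ratio of 5.74 (3.27 to 11), and 6.38 adjusted. Over the list, 28 of 29 genes were kept, 6 were higher and 5 lower, with a median of 0.40; adjusted, 1 was higher and 8 lower with a median of -0.16. The list's side of the median of all genes thus turned with the adjustment. The unadjusted 6 and 5 of 28 lie near the shares of all genes, 21.7% higher and 14.2% lower. Adjusted, those shares were 11.1% and 15.0%.

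**Figure D2:**
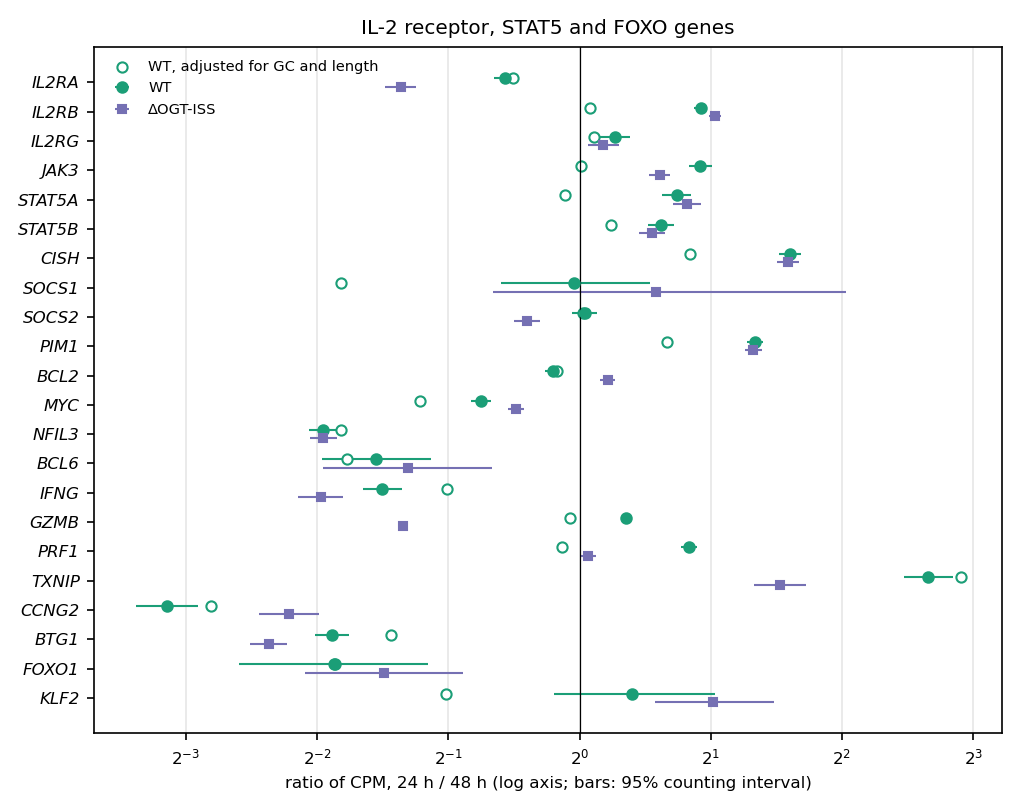
Ratio of CPM at 24 h to 48 h (log axis) for 22 genes of the IL-2 receptor, STAT5 and FOXO groups; bars are 95% counting intervals, filled circles WT, open circles WT after adjustment, squares ΔOGT-ISS. CISH and PIM1 lie at 3.04 and 2.52 in WT, NFIL3 and BCL6 at 0.26 and 0.34, and TXNIP at 6.31.

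Genes that PI3K and AKT signalling restrains through FOXO, a group tied to quiescence, were higher in some cases and lower in others. Of 26 genes 20 were kept, 4 higher and 6 lower, with a median of -0.03 (adjusted -0.11). TXNIP, which binds thioredoxin and limits glucose uptake (ENSG00000265972, chromosome 1, 145992435 to 145996600), had 3828 counts at 24 h and 253 at 48 h, that is 150 and 23.8 CPM. Its ratio was 6.31 (5.55 to 7.19), 7.49 adjusted, and 2.88 in the edited line. CCNG2, a cyclin that slows the cycle, was the reverse, with 7.39 and 65.3 CPM and a ratio of 0.11 (0.10 to 0.13). BTG1, an antiproliferative gene, was at 31.5 and 117 CPM, a ratio of 0.27 (0.25 to 0.30). TSC22D3 and FOXO1 itself were lower too, with ratios of 0.28 and 0.27 on at most 47 counts in either library. KLF2, a quiescence factor, had 98 and 31 counts and a ratio of 1.32 with an interval from 0.87 to 2.04 that holds 1; adjusted, its direction turned and it was called lower, at 0.49 (0.33 to 0.76).

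Several glycolytic and HIF1-regulated genes were lower at 24 h, beyond the 2-fold limit with and without the adjustment. PFKFB4, which sets the level of the glycolytic activator fructose 2,6-bisphosphate, had 56 counts at 24 h and 307 at 48 h, a ratio of 0.076 (0.056 to 0.10). P4HA1 had 377 and 1564 counts, that is 14.8 and 147 CPM, and a ratio of 0.10 (0.09 to 0.11). BNIP3L, a mitophagy receptor, had 325 and 1351 counts and the same ratio, 0.10. PDK1, the kinase that keeps pyruvate from mitochondria, was at 26.8 and 106 CPM, a ratio of 0.25 (0.23 to 0.28). All 4 kept their call after adjustment, at 0.045, 0.13, 0.14 and 0.32. ALDOC, a brain aldolase, was opposite with 104 counts against 1, a ratio of 43.4 with a counting interval from 7.61 to 1729, and 27.1 adjusted (4.75 to 1079). In all 27 of 32 genes were kept, 10 were lower and 2 higher, with a median of -0.41; adjusted, 12 were lower and 1 higher with a median of -0.93. GAPDH, ENO1 and PKM, enzymes of the main glycolytic route named here after their values were seen, had ratios of 1.10, 0.75 and 0.91 and adjusted ratios of 0.61, 0.58 and 0.67, so GAPDH turned direction. After adjustment 26 of the 27 genes were below 0 on the log2 scale, all but ALDOC. In the edited line the median was -0.32, and -0.55 adjusted.

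Targets of NF-kB, the inflammatory transcription factor, were lower at 24 h in 10 of 22 genes kept and higher in 2, with a median of -0.72, and in 13 and 2 after adjustment, with a median of -1.19. CXCL8 (interleukin 8; ENSG00000169429, chromosome 4, 73740506 to 73743716), a neutrophil chemokine, had 1 count at 24 h and 338 at 48 h. In the edited line it had 3 and 158. TNFAIP3 (A20), the inducible brake on NF-kB, was at 36.9 and 211 CPM, a ratio of 0.17 (0.16 to 0.19). BIRC3, an apoptosis inhibitor of the same pathway, was at 43.6 and 310 CPM, a ratio of 0.14 (0.13 to 0.15) and 0.21 adjusted. CCL4, a chemokine, had a ratio of 0.27 (0.26 to 0.28). TNF stood against them with 1325 and 151 counts, a ratio of 3.66 (3.09 to 4.36) and 2.68 adjusted. JUN and ATF3, early-response genes, were also lower, at 18.8 and 160 CPM and at 0.67 and 6.88 CPM, ratios of 0.12 (adjusted 0.070) and 0.097. Among 21 immediate early genes kept, however, 2 were higher and 3 lower with a median of 0.22, which became 0 and 9 with a median of -0.70 after adjustment.

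Stress responses of the endoplasmic reticulum and of amino acid supply had lower medians at 24 h. Of 20 unfolded protein response genes 9 were lower and none higher (median -0.64; adjusted 6 lower, median -0.87). HERPUD1, part of the degradation machinery of the endoplasmic reticulum, was at 22 and 65.7 CPM, a ratio of 0.34 (0.30 to 0.38), and the chaperone partner DNAJB9 at 12.5 and 45.6 CPM, a ratio of 0.27. In the list of ATF4 and amino acid response genes, 25 of 28 were kept, with 4 lower and 2 higher (median -0.55; adjusted 10 and 1, median -0.76). The 4 of 25 called lower lie near the share of all genes called lower, 14.2%, and the adjusted 10 above the adjusted share, 15.0%. SLC7A11, the cystine importer, had 190 and 523 counts and a ratio of 0.15 (0.13 to 0.18). CARS1, a cysteine tRNA synthetase, had a ratio of 0.45. Cytosolic heat shock proteins had 5 lower and none higher of 18 kept, with HSP90AA1 at 1495 and 3850 CPM, a ratio of 0.39. The edited line's adjusted medians were -0.90 for the unfolded protein response and -1.34 for the ATF4 list, but -0.11 for heat shock.

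Genes of ribosomes and respiration had lower medians at 24 h. Of 56 cytosolic ribosomal protein genes 19 were lower and 2 higher, with a median of -0.66 (adjusted 23 and 0, median -0.84). RPL38 was at 115 and 693 CPM, a ratio of 0.17, and RPL34 at 134 and 600 CPM, a ratio of 0.22. Ribosomal protein genes have many processed pseudogenes, a class whose share of counts also differed between the libraries, so their counts are uncertain where reads could be divided among copies. MYC-driven ribosome biogenesis genes had 4 lower and 1 higher of 30 (median -0.37; adjusted 9 and 0, median -0.51), including the nucleolar proteins NPM1 at a ratio of 0.39 and NCL at 0.47 and the polyamine enzyme ODC1 at 0.50. PPAN, the single higher gene, had a ratio of 2.64 and of 1.13 adjusted. The 4 of 30 called lower lie near the share of all genes called lower, 14.2%. The 9 of 30 called lower after adjustment lie above the adjusted share, 15.0%. Nuclear genes of oxidative phosphorylation had 9 lower and 1 higher of 38 (median -0.43; adjusted -0.72). In the edited line their median was 0.00 and -0.19 adjusted, and 22 of the 38 were below 0 in both lines after adjustment. The share of all genes below 0 in both lines was not worked out, so that count has no background.

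Cell-cycle genes differed little except the histones. Of 40 G2/M genes 1 was higher, NUSAP1, and none lower; TOP2A, a topoisomerase of dividing cells, was at 1151 and 1304 CPM. Among 36 genes of G1/S and DNA replication 5 were higher and 2 lower, with E2F2 at a ratio of 3.40 and adjusted 1.92, and TYMS, thymidylate synthase, at 2.23 and adjusted 2.11. POLD1, a DNA polymerase subunit, turned from 2.23 to 0.82 with the adjustment. Replication-dependent histone genes were higher in 37 of 45 and lower in none, with a median log2 ratio of 1.63; adjusted, 20 were higher and 1 lower with a median of 0.72. H4C8 had 5997 counts at 24 h and 436 at 48 h, a ratio of 5.73 (5.20 to 6.33), and 6.98 adjusted. H2BC5 had 13024 and 788, a ratio of 6.89, and 6.12 adjusted. Other copies moved far more with the adjustment: H4C13 went from 6.82 to 2.57, H3C1 from 6.78 to 2.55, and H2AC20 from 5.63 to 1.86, where it lost its call. These genes, short near-identical copies, had a median GC content of 57.2%, which makes single members uncertain, and their mRNAs mostly lack poly(A) tails. The median in the edited line was 1.08, and 0.49 adjusted.

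In WT, genes of the granule contents were level or higher at 24 h. GZMB, granzyme B, was at 1087 and 849 CPM, a ratio of 1.28 (1.25 to 1.31) that became 0.95 when adjusted. PRF1, perforin, was at 425 and 238 CPM, a ratio of 1.78 and 0.91 adjusted. The mRNAs of these 2 chief killing proteins were thus within 2-fold between the times on both scales in WT. In the edited line GZMB was lower at 24 h, at a ratio of 0.39 (0.38 to 0.40) and 0.31 adjusted. PRF1 there had a ratio of 1.05, and 0.60 adjusted. GZMM (ENSG00000197540, chromosome 19, 544034 to 549924), granzyme M, had 2110 and 73 counts, that is 82.9 and 6.88 CPM, a ratio of 12 (9.54 to 15.4); its transcript has 66.8% GC and the adjusted ratio was 3.92. FASLG, the Fas ligand, was at 89.3 and 30.2 CPM, a ratio of 2.96 (2.63 to 3.34), and 3.23 adjusted. Of 16 granule genes 5 were higher and none lower in WT, with a median of 0.63. After adjustment 3 were higher, with a median of 0.19. The edited line's median for this list was -0.38, and -0.57 adjusted. Of 17 granule exocytosis genes kept, 3 were higher and 2 lower in WT, against 21.7% and 14.2% of all genes. Adjusted, 0 were higher and 2 lower, with a median of 0.02. The 2 lower genes were SYTL2, at a ratio of 0.35 and 0.40 adjusted, and SYTL3, at 0.47 and 0.40 adjusted.

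Receptors and secreted factors diverged gene by gene. CCL5, a chemokine that draws T cells, was at 627 and 214 CPM, a ratio of 2.93 (2.80 to 3.06) and 2.29 adjusted. Of 10 chemokine and sphingosine receptors kept, 5 were higher and 1 lower (median 1.03; adjusted 2 and 1, median 0.41). CRTAM and TYROBP, an activating receptor and a signalling adaptor, were higher at ratios of 4.53 and 4.06, of which CRTAM kept its call when adjusted, at 5.53, and TYROBP lost it, at 1.93; the adaptor FCER1G was lower at 0.34, each on fewer than 100 counts in at least 1 library. Of 30 NK activating receptors and adaptors kept, 5 were higher and 3 lower, below the shares of all genes, 21.7% and 14.2%. Adjusted, 3 were higher and 4 lower. Of 11 inhibitory receptors kept, 1 was higher and 2 lower, and 0 and 3 adjusted. Among these, CTLA4 had 53 and 185 counts, a ratio of 0.12 (0.09 to 0.16), and HAVCR2 (TIM-3) a ratio of 0.38 (0.35 to 0.41). LAG3 was higher at 2.07 and 0.87 adjusted. CD7, an NK-92 marker, had 251 counts at 24 h and 7 at 48 h, a ratio of 15 (7.15 to 37.6), and 5.12 adjusted.

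**Figure D3:**
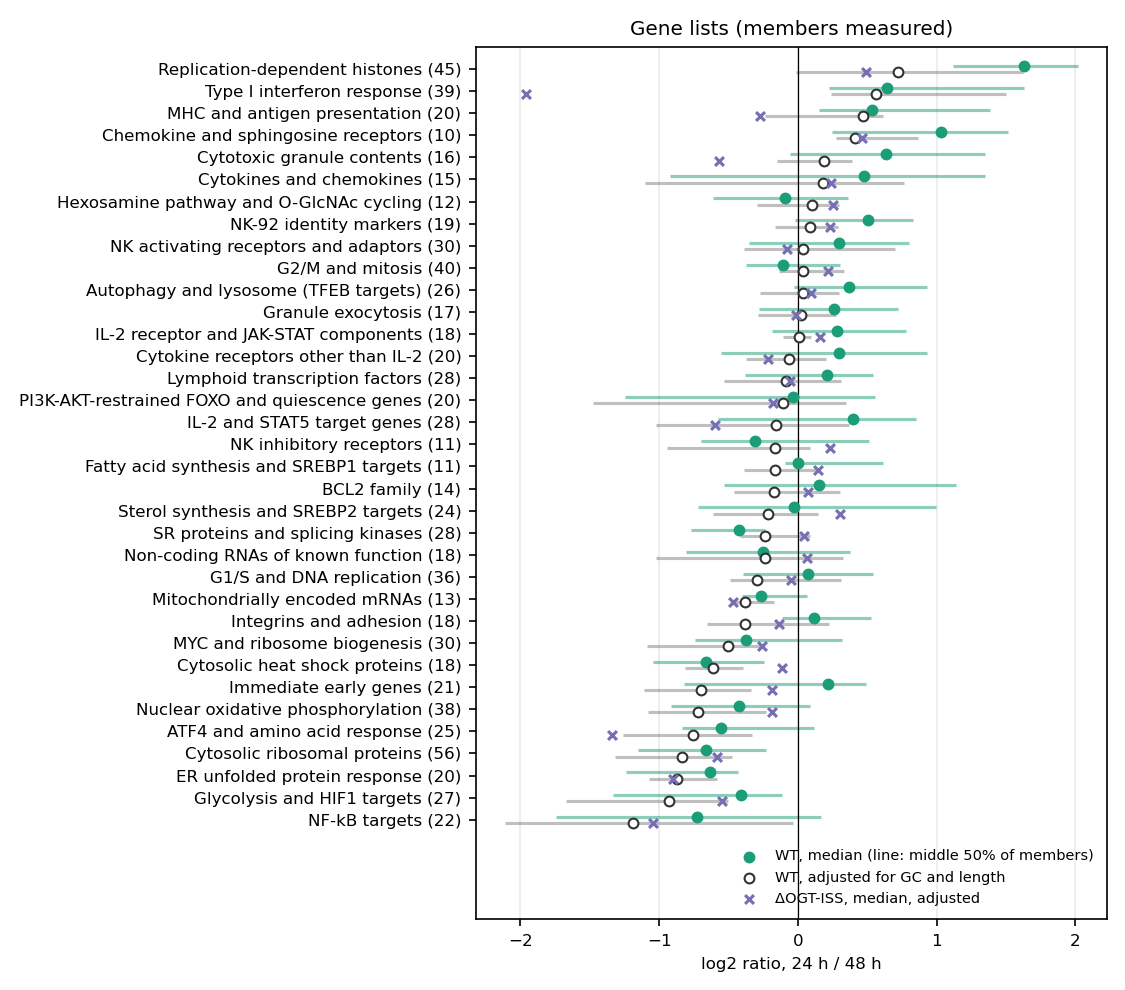
Median log2 ratio of 24 h to 48 h for the lists with at least 10 measured members (number in brackets), in WT (filled circles), in WT after adjustment (open circles) and in ΔOGT-ISS after adjustment (crosses); lines span the middle 50% of members in WT. NF-kB and HIF1 lists have the lowest adjusted WT medians, -1.19 and -0.93, and the interferon list has a WT median of 0.56 against -1.96 in the edited line.

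The genes farthest apart, by the interval bound nearest 1, included several lineage regulators. ZNF683 (HOBIT; ENSG00000176083, chromosome 1, 26361634 to 26374522), a transcription factor of tissue-resident lymphocytes, had 3404 counts at 24 h and 35 at 48 h, that is 134 and 3.30 CPM. Its ratio was 40.6 (29.1 to 58.3), and 21.5 adjusted; in the edited line it was 2.66. IL9R, a cytokine receptor that uses the common gamma chain, was at 121 and 7.92 CPM, a ratio of 15.2 (12.3 to 19.1), and 7.88 adjusted. CD52, a surface glycoprotein of lymphocytes, had 449 counts against 0. With 3 counts in place of the 0 its ratio was 62.4, and 40.2 adjusted, while the lower bounds of the 95% interval were 50.5 and 32.6. MGAT2, a Golgi enzyme of N-glycan branching, had 337 against 0. With the same 3 counts its ratio was 46.8, and 47.5 adjusted, with lower interval bounds of 37.9 and 38.4. In the edited line CD52 had 73 and 2 and MGAT2 347 and 4.

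At the low end, besides CXCL8, RGS1 stood out by abundance. RGS1, which damps chemokine receptor signalling, had 377 and 2465 counts, that is 14.8 and 232 CPM, a ratio of 0.064 (0.057 to 0.071) and 0.097 adjusted, and 0.13 in the edited line. TREM1, an activating receptor best known on myeloid cells, had 14 and 304 counts, a ratio of 0.019. MXI1, a MYC antagonist, was at 3.61 and 52.1 CPM, a ratio of 0.069 (0.055 to 0.087). RPS27AP5 and EIF5AL1, with 0 and 108 and with 3 and 218 counts, closely resemble their parent genes and are uncertain. OGT and OGA, the enzymes that add and remove O-GlcNAc, differed little, at ratios of 0.98 (0.94 to 1.01) and 1.00 (0.95 to 1.07). GNPDA1, which converts glucosamine 6-phosphate back to fructose 6-phosphate (chromosome 5, 141991749 to 142013041), had 164 and 661 counts, a ratio of 0.10 (0.087 to 0.12) in WT and 0.11 in the edited line.

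**Figure D4:**
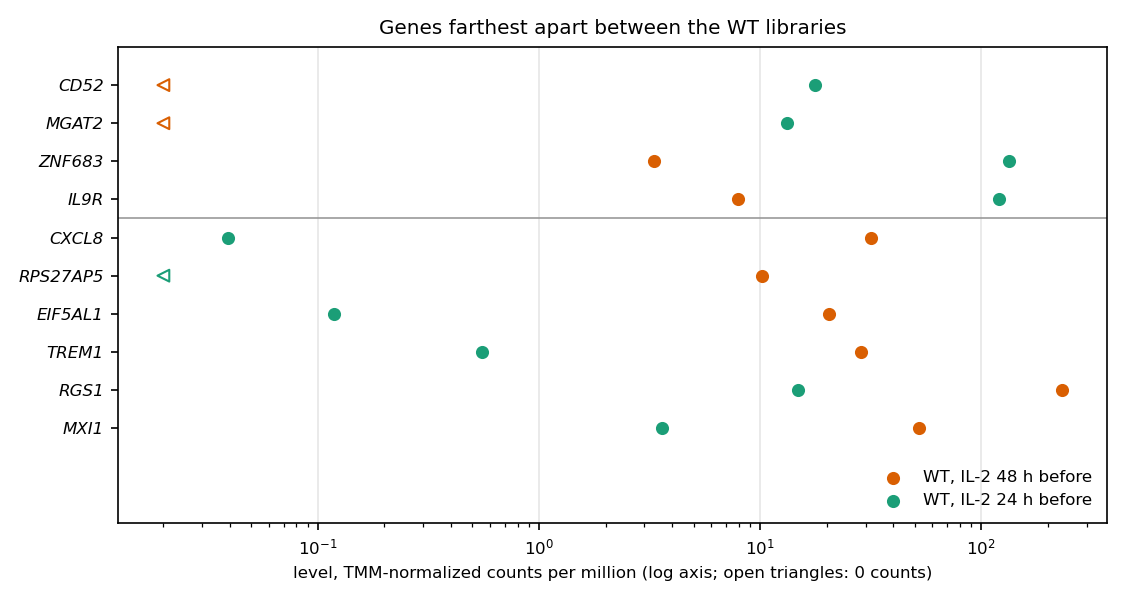
Level in TMM-normalized CPM (log axis) at 24 h (green) and 48 h (orange) in WT for the 4 higher genes (above the grey line) and 6 lower genes (below it) described in the text among those farthest apart; open triangles mark 0 counts. ZNF683 lies at 134 and 3.30 CPM and RGS1 at 14.8 and 232 CPM.

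Interferon-stimulated genes had a higher median at 24 h in WT and a lower one in the edited line, a difference that could not be tested with 1 library each. In WT 39 of 41 genes were kept, 14 higher and 1 lower at 24 h, with a median of 0.64; adjusted, 14 were higher and 2 lower with a median of 0.56. LGALS3BP, a secreted glycoprotein, had 390 counts at 24 h and 18 at 48 h in WT, a ratio of 9.03 (5.64 to 15.4) and 4.44 adjusted, and 152 and 134 in the edited line, a ratio of 0.46 (0.36 to 0.58). IFITM1, a membrane protein that blocks viral entry, had 717 and 36 counts in WT, a ratio of 8.30 (5.94 to 12) and 6.03 adjusted, and 564 and 266 in the edited line, a ratio of 0.85. IRF9, the DNA-binding subunit of the interferon-activated complex (chromosome 14, 24161053 to 24166565), had 421 and 29, a ratio of 6.05 (4.15 to 9.15) and 4.13 adjusted, and 409 and 220, a ratio of 0.75. The 24 h counts of these 3 genes were nearer between the lines than the 48 h counts. MX2 was the lower gene, with 1 and 17 counts. ISG15 and IFIT1, classical members named after their values were seen, had ratios of 0.63 and 1.30 in WT (adjusted 0.24, called lower, and 1.58) and 0.10 and 0.12 in the edited line, where their 48 h counts were 3466 and 1098 against 487 and 78 in WT. Of 38 members measured in both pairs, 31 were above 0 in WT and below 0 in the edited line after adjustment, 5 below in both, 2 above in both and 0 the other way. The shares of all genes in these positions were not worked out, so the counts have no background. The median in the edited line was -1.79.

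**Figure D5:**
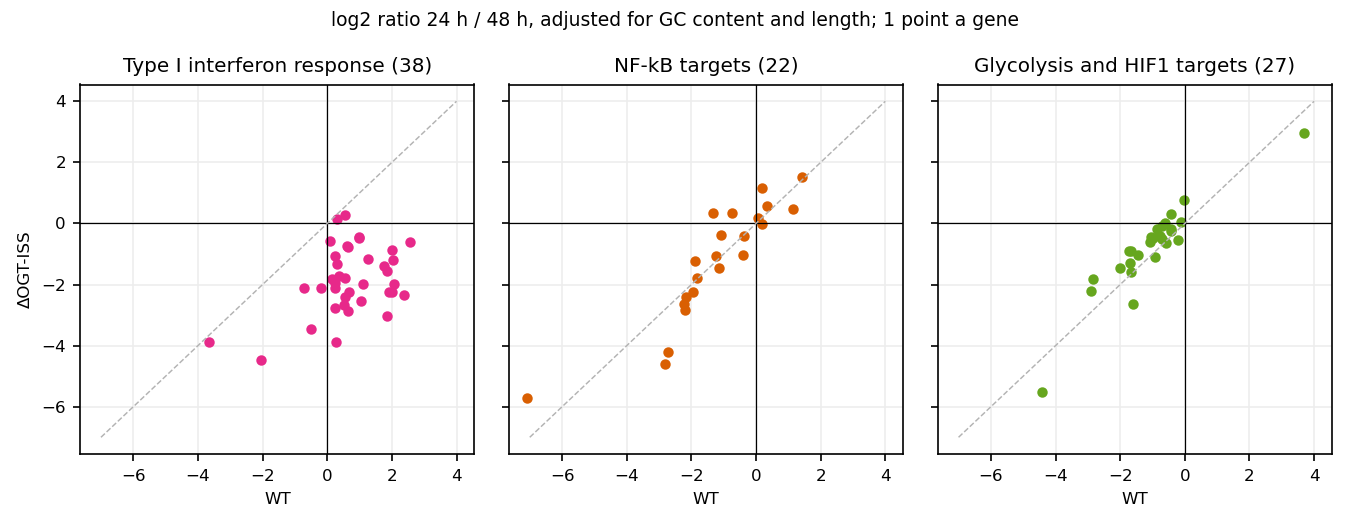
Adjusted log2 ratio of 24 h to 48 h in WT (horizontal axis) and ΔOGT-ISS (vertical axis) for the members of 3 lists, 1 point a gene; the dashed line marks equal ratios. In the interferon panel 31 of 38 genes lie right of 0 and below 0, whereas 14 of 22 NF-kB and 22 of 27 glycolysis and HIF1 genes are below 0 in both lines. The shares of all genes in these positions were not worked out.

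Across all genes the 2 pairs, which share no library but share the depth and GC difference between the times, often had the same call. The log2 ratios of 17713 genes correlated across genes with r = 0.61, and the adjusted ones of 17066 genes with r = 0.57; genes are not independent replicates. In the edited line 17.1% of all genes tested were called higher and 18.9% lower. Of the 3843 genes called higher in WT and kept in both pairs, 1957 (50.9%) were called higher in the edited line and 166 lower, and of the 2219 called lower 1202 (54.2%) were called lower and 57 higher. Seen from the edited line, 61.1% of its higher and 52.4% of its lower genes had the same call in WT. After adjustment 8.94% of the edited line's genes were higher and 20.1% lower, and 640 of 1913 WT higher genes (33.5%) and 1269 of 2269 WT lower genes (55.9%) had the same call there. TNFRSF9 was among those that differed, with 179 and 13 counts in WT and 18 and 70 in the edited line.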

How the data were processed

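RNA was sequenced from NK-92 cells, 1 library for each of 2 lines and 2 IL-2 times. The raw counts per Ensembl gene were deposited by the authors without normalization. The submitters' processing notes list build hg38 and the tools featureCounts 2.0.1, HISAT2 2.2.0 and SAMtools 1.15.1 without roles. Settings for strand, multi-mapping and molecular identifiers are not stated there or in the labels, so overlapping, antisense and near-identical genes are uncertain. The authors' deposited FPKM values served only as an alternative.

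Symbols came from the authors' table for 41013 of 61860 identifiers and from a name table for 1404 more; GENCODE release 29 placed 58308. Genes with at least 10 counts in 1 WT library were kept. Ratios are of TMM-normalized CPM (edgeR 4.0.16, R 4.3.3), with Clopper-Pearson 95% intervals on the split of a gene's counts, which cover counting error only; log2 ratios use a prior count of 2. For a count of 0, a ratio with 3 counts in its place was also worked out. The adjusted ratio subtracts a loess fit (span 0.3) on GC content and length of the longest transcript, a form chosen after the files were seen. The calculation was tested on simulated data.

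Named genes were the 12 in each direction with the interval bound farthest from 1, with at least 5 CPM in 1 library and still 2-fold after adjustment, up to 5 called members of each of 39 lists, and a fixed set of IL-2 genes; not all of them are reported here. Members and lists were chosen with earlier results of these data known. Alternatives were other normalizations (DESeq2 1.42.0 size factors, upper quartile, all 4 libraries, library size), the adjustment, thinning, count minimums, prior counts and FPKM pseudocounts. Promoter windows are from RefSeq; where a symbol had several, the first was used.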

Additional observations from a re-analysis of the deposited data

Results flagged for a closer look

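The interferon list had a median log2 ratio of 0.64 in WT and -1.79 in the edited line, so the medians lay on opposite sides of 0. TNFRSF9 had a log2 ratio of 2.42 in WT and -3.08 in the edited line, and LGALS3BP 3.09 and -1.11. With 1 library for each line and time, none of these differences between the lines was tested. Flagged lists had at least 5 members and medians of opposite sign in the lines both before and after adjustment. Their unadjusted median also had to reach 1 in size in at least 1 line. Flagged genes were named genes called in opposite directions in the lines both before and after adjustment. The rule was narrowed after the values were seen. Lists with smaller opposite medians, such as the granule contents, were not flagged.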

How the results depend on the processing

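No paired analysis was possible because each side has 1 library and the labels carry no replicate numbers, and for the same reason no library could be left out. The counts of 4126 genes higher and 2703 lower became 2241 and 1237 with at least 50 counts and 2402 and 1297 on the authors' FPKM with a pseudocount of 1; the adjustment for GC content and length gave 2033 higher. The adjustment also lowered the median log2 ratio of the histones to 0.72 and of the chemokine and sphingosine receptors to 0.41, and reversed 5 named genes that were called without it, POLD1 (-0.28), FASN (-0.42), LAG3 (-0.21), BAD (-0.17) and ULK1 (-0.13). Of named genes not called without it, KLF2 (to -1.03), PRF1, GZMB, STAT5A, ITGA2B, TOP2A and OGT also changed sign. After adjustment 59 of 197 named genes stayed inside their counting interval and 133 others moved outside it. Among the medians of the 39 lists, 7 moved by over 1.5-fold. With at least 1 count 100 of the 197 genes moved outside their interval, and 109 did on FPKM with a pseudocount of 1. With at least 50 counts the B cell markers, then 1 gene, had -0.73. Relative to the median of all genes, the adjustment turned the side of the lists of IL-2 and STAT5 targets, G2/M, immediate early genes, other cytokine receptors, integrins, lymphoid transcription factors, the BCL2 family and the hexosamine pathway. The 4 other normalizations change only 1 scaling factor per library. They shift all log2 ratios almost equally, so they could not test the lists against each other. Under them the median of all genes ran from 0.08 to 0.19, against 0.12 in the main setting. No median of the 39 lists moved by over 1.5-fold, a limit set, like the choice of lists it was applied to most closely, after the files were seen.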
